A study of Homo sapiens with 12 samples.

Results

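ATF3, PPP1R15A and 7 further genes of the integrated stress response were followed through 12 RNA libraries of NUGC-4, a cell line of diffuse gastric cancer. ATF3 and PPP1R15A were much lower with either of the 2 kinase inhibitors tested, IN10018 and crizotinib, and lower still with crizotinib than with IN10018. In the same libraries ATF4, CEBPB and DDIT3 rose with crizotinib alone and with the combination, NUPR1 was also higher there, and none of these 4 was called with IN10018 alone. The calls with crizotinib alone were lost in 4 of 21 alternative settings for ATF4 and in 11 for CEBPB. ASNS, CHAC1 and SESN2 were not called against control with any treatment. All 9 members (ATF3, PPP1R15A, ATF4, DDIT3, CHAC1, ASNS, SESN2, NUPR1 and CEBPB) were found by symbol among the 60623 rows of the count matrix, and all 9 were among the 17096 genes that passed the filter on low counts. ATF3, PPP1R15A and NUPR1 were chosen on their measured changes in these same libraries, so their values are a description and carry no p. The other 6 were chosen by their known place in the pathway, with earlier results of these data in view.

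The integrated stress response starts when a kinase such as PERK (encoded by EIF2AK3) or GCN2 (EIF2AK4) phosphorylates the alpha subunit of the translation factor eIF2. Most protein synthesis then slows, while translation of ATF4 mRNA increases, and the ATF4 protein switches on genes for amino acid supply, redox balance and, through DDIT3 (CHOP), cell death. PPP1R15A (GADD34) brings a phosphatase to eIF2 and closes the response. ATF3 and PPP1R15A are also known as rapidly inducible genes in other settings, including growth factor signalling. Phosphorylation of eIF2 and protein levels were not measured here, and the mRNA level of ATF4 does not report how much of it is translated.

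The cells, labelled wild type, were treated for 24 h with 1 µM IN10018, an inhibitor of focal adhesion kinase, with 1 µM crizotinib, an inhibitor of the receptor kinases MET, ALK and ROS1, with both at 1 µM each (combination), or left as control. Each group had 3 libraries of this 1 cell line, and the labels do not say whether these came from separate cultures or whether controls received vehicle. The p-values therefore measure the spread between these libraries, which may be technical.

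The libraries held 13691844 to 20489708 reads. Crizotinib library 2 stood apart from its group, scoring 57.8 on the first principal component where crizotinib libraries 1 and 3 scored -4.61 and 10.3, among the combination libraries at 37.8 to 91.4. Mitochondrially encoded genes took 5.21% of its reads, compared with 13.3 and 9.46% in the other crizotinib libraries. Their share was 11.5 to 12.7% with IN10018, 4.28 to 6.99% with the combination and 11.0 to 11.9% in control, so it was below control in every combination library and in crizotinib libraries 2 and 3, but above it in crizotinib library 1. The part of this share in the results was not tested. Of the epithelial markers, KRT8 (1120 to 2366 CPM), KRT18 and EPCAM were read in every library, whereas KRT19 had 0 reads, CDH17 1 read and CLDN18 4 reads in all. The description label of every sample mentions adipogenic differentiation. ADIPOQ had 0 reads and LEP 2, and the 5 adipocyte markers summed to 61.4 to 70.7 CPM with IN10018, 70.0 to 117 with crizotinib, 105 to 133 with the combination and 68.5 to 77.3 in control, nearly all from FABP4. The 5 immune markers, nearly all CD14, summed to 17.8 to 20.6, 28.6 to 33.3, 28.5 to 34.1 and 19.2 to 24.0 CPM in the same order of groups, with CD3E at 0 reads. The part of these markers in the results was not tested.

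Sequences upstream of 4 members are shown because ATF3 and PPP1R15A moved together and because CHAC1 and ASNS, textbook ATF4 targets, were not called where ATF4 rose. CHAC1 had only 4 to 18 reads a library and ASNS 17 to 42, so up to moderate changes in them were not detectable. The sequences are from RefSeq on build GRCh38.p14, 5′ to 3′ on the gene's own strand, with position -1 the base before the transcript start. Capitals mark a match, on either strand, to the core of the composite C/EBP-ATF element (TGATGNAA) or to the cyclic AMP response element, CRE (TGACGTCA). The ATF3 stretch is chr1:212565157-212565333 (+ strand, -250 to -74), upstream of the first of its 2 annotated starts. The PPP1R15A stretch is chr19:48872261-48872391 (+ strand, -160 to -30). For CHAC1, chr15:40953251-40953280 (+ strand, -220 to -191), and for ASNS, chr7:97872458-97872487 (- strand, -79 to -50), the 30 bases around the match are given, since transcripts that start further upstream are annotated there.
ATF3: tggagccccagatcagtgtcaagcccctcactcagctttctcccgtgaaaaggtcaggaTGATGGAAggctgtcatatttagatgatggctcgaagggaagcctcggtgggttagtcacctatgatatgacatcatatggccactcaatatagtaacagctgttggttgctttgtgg
PPP1R15A: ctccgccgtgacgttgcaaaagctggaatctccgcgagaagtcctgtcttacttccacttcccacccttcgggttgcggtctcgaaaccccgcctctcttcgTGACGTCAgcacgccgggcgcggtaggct
CHAC1: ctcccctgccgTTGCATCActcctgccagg
ASNS: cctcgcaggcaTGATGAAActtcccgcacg

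ATF3 held the composite core at -191 to -184, ASNS at -68 to -61 and CHAC1 at -209 to -202 on its minus strand, and PPP1R15A held the CRE at -58 to -51. Of 35116 RefSeq windows of the same length (250 bases before to 50 after a start), 3.62% held the composite core and 1.85% the CRE. The last motif searched, the AP-1 core (TGANTCA, also searched on both strands), stood in 7.71% of windows and, among the members, in DDIT3 at -241 to -235 of one of its starts. No 2 of the 3 motifs overlapped in these windows. The windows of SESN2, CEBPB and ATF4 and the second ATF3 window held none of the 3 letter patterns. The matches are descriptions of letters and not of bound sites.

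Against control, edgeR called 2 of the 9 members lower with IN10018 (ATF3 and PPP1R15A), where 0.158% of all tested genes were called lower, and 0 higher, where 0.345% were. With crizotinib it called the same 2 lower, against 17.6% of all genes, and 4 higher (ATF4, DDIT3, NUPR1 and CEBPB), against 20.0%. With the combination the 2 lower and 4 higher members were again these, where 29.1% of all genes were called lower and 33.7% higher. Because ATF3, PPP1R15A and NUPR1 were chosen on such changes, nothing is read from these counts. The 3 comparisons share the control libraries. A call means a Benjamini-Hochberg adjusted p under 0.05 over all tested genes, and CPM means a gene's reads scaled to library size with TMM factors. In bulk RNA, fewer cells that express a gene and less RNA per cell cannot be told apart.

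**Figure D1:**
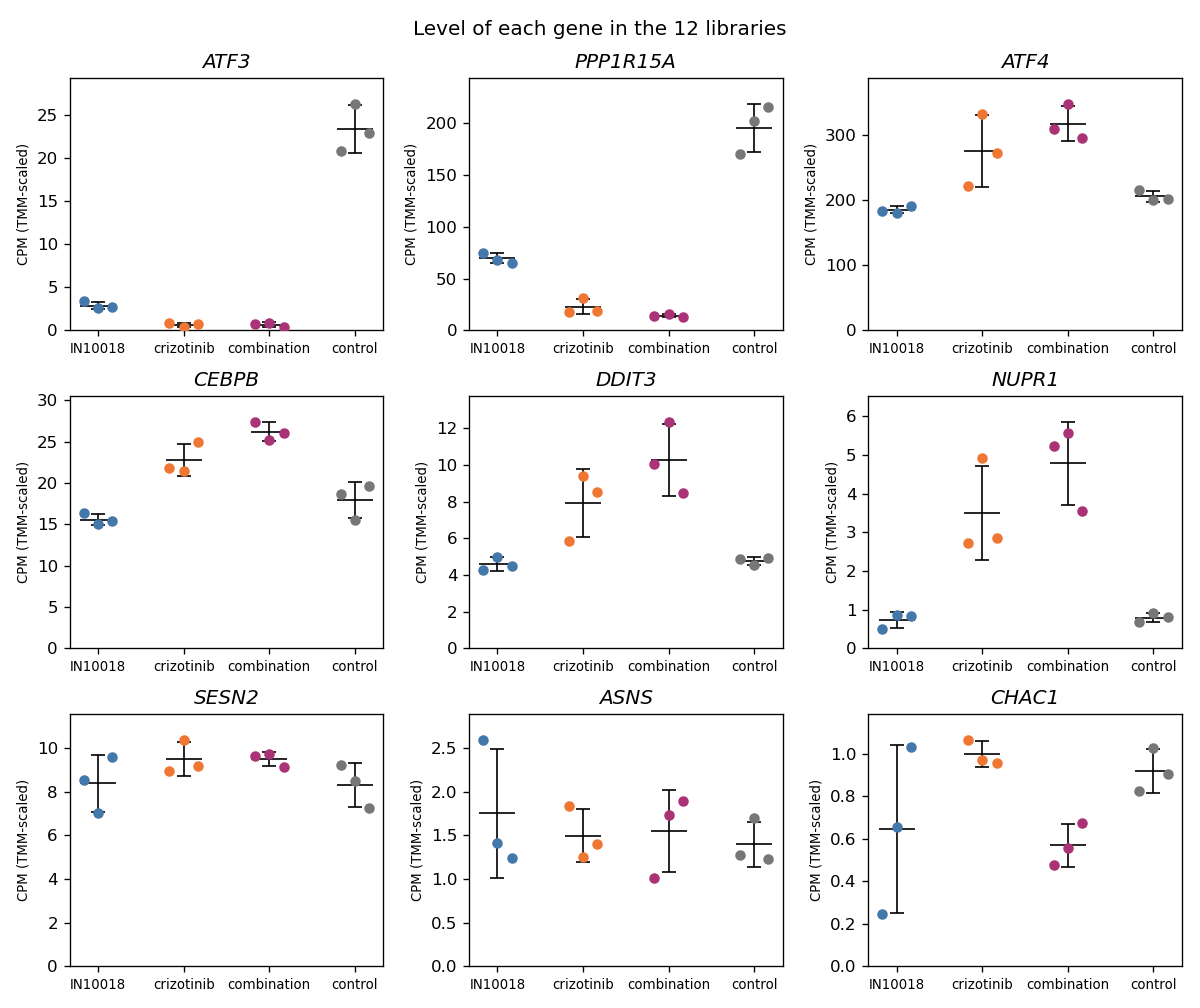
Level of each member in CPM (vertical axis, from 0) in the 3 libraries of each group, with the bar at the mean and whiskers of 1 SD. ATF3 and PPP1R15A lie highest in control, at 20.9 to 26.4 and 170 to 215 CPM, whereas ATF4, CEBPB, DDIT3 and NUPR1 lie highest in the crizotinib and combination libraries.

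ATF4 (ENSG00000128272, GRCh38 chromosome 22, 39519695 to 39522685, + strand) is the transcription factor at the centre of the response. It had 183, 180 and 191 CPM with IN10018, 221, 332 and 271 CPM with crizotinib, 308, 348 and 295 CPM with the combination, and 215, 199 and 202 CPM in control. All crizotinib and combination libraries lay above all control libraries, crizotinib library 1 by the least, and the IN10018 libraries lay just under control. ATF4 rose with crizotinib by 0.42 ± 0.13 on the log2 scale (SE, edgeR adjusted p = 0.0217) and with the combination by 0.63 ± 0.13 (adjusted p = 0.000889). Without crizotinib library 2 the crizotinib change was 0.26 and was no longer called (adjusted p = 0.0944). It was also not called without control library 2 (0.39) or control library 3 (0.35), nor with only the 6 libraries compared in the fit (0.40). With IN10018 the difference was -0.15 ± 0.13 (adjusted p = 0.725).

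CEBPB (ENSG00000172216, chromosome 20, 50190734 to 50192689, + strand) encodes C/EBP beta, a bZIP factor that can pair with ATF4. Its levels were 16.3, 15.1 and 15.4 CPM with IN10018, 21.9, 21.4 and 25.0 CPM with crizotinib, 27.4, 25.2 and 26.0 CPM with the combination, and 18.7, 15.5 and 19.7 CPM in control. The combination libraries were the 3 highest of all 12, and the crizotinib libraries came next without reaching down to control. CEBPB rose by 0.34 ± 0.12 with crizotinib (adjusted p = 0.0354) and by 0.54 ± 0.12 with the combination (adjusted p = 0.0012). The crizotinib call was lost in 11 of 21 alternative settings, among them the removal of any 1 control library, while its value lay between 0.24 and 0.46 over all 21, and the combination call held in every one of them. An antisense transcript, CEBPB-AS1, overlaps the gene and had 256 reads in the 12 libraries, and the strand setting of the counting is not given in the sources used here.

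DDIT3 (ENSG00000175197, chromosome 12, 57516588 to 57521737, - strand) encodes CHOP, the factor through which a long-lasting response leads to cell death. It had 4.27, 5.00 and 4.48 CPM with IN10018, 5.87, 9.42 and 8.53 CPM with crizotinib, 10.1, 12.4 and 8.45 CPM with the combination, and 4.86, 4.54 and 4.95 CPM in control. The crizotinib and combination libraries overlapped each other but neither group overlapped control, and of the IN10018 libraries 1 and 3 lay below and 2 above all 3 controls. DDIT3 rose by 0.73 ± 0.19 with crizotinib (adjusted p = 0.0122) and by 1.10 ± 0.19 with the combination (adjusted p = 0.000317), about 2.15 times the control level. Both calls held in all 21 alternatives, and without crizotinib library 2 the crizotinib change was 0.58 (adjusted p = 0.0466). The genes MARS and MBD6 on the opposite strand overlap DDIT3. On the same strand MIR616 (183 reads in all) and AC022506.1 (0 reads) overlap it, so the DDIT3 counts carry this doubt.

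ATF3 (ENSG00000162772, chromosome 1, 212565334 to 212620777, + strand) encodes a bZIP factor induced through ATF4 and by other signals. It had 3.40, 2.58 and 2.69 CPM with IN10018, 0.830, 0.400 and 0.764 CPM with crizotinib, 0.714, 0.903 and 0.367 CPM with the combination, and 20.9, 26.4 and 23.0 CPM in control. The IN10018 libraries formed a level of their own between the control libraries and the 6 libraries that received crizotinib, and these 6 overlapped each other. In reads, this was 39 to 55 with IN10018, 7 to 14 with crizotinib, 6 to 13 with the combination and 279 to 436 in control. The log2 fold change against control was -3.02 ± 0.21 with IN10018, -5.13 ± 0.25 with crizotinib and -5.15 ± 0.26 with the combination, which is 8.11, 35.1 and 35.4 times lower. Crizotinib differed from IN10018 by -2.11 ± 0.29. Without crizotinib library 2, the lowest of its group for ATF3, the crizotinib change against control was -4.86.

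NUPR1 (ENSG00000176046, chromosome 16, 28532708 to 28539174, - strand) encodes a small stress-induced chromatin protein. It had 0.495, 0.859 and 0.827 CPM with IN10018, 2.73, 4.91 and 2.86 CPM with crizotinib, 5.24, 5.56 and 3.55 CPM with the combination, and 0.673, 0.908 and 0.798 CPM in control. Every library that received crizotinib had at least 45 reads of NUPR1, while none of the IN10018 libraries exceeded 17 and none of the controls 15. The log2 fold change against control was -0.13 ± 0.38 with IN10018, 2.12 ± 0.31 with crizotinib and 2.57 ± 0.31 with the combination. Crizotinib library 2 was the highest of its group, as it was for ATF4 and DDIT3, and without it the crizotinib change was 1.79.

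PPP1R15A (ENSG00000087074, chromosome 19, 48872392 to 48876057, + strand) encodes the inducible subunit that directs protein phosphatase 1 to eIF2. It had 75.1, 68.4 and 65.4 CPM with IN10018, 18.0, 31.0 and 19.0 CPM with crizotinib, 13.7, 16.2 and 12.7 CPM with the combination, and 170, 202 and 215 CPM in control. The 4 groups did not overlap, with control highest, then IN10018, then crizotinib, and the combination lowest. Log2 fold changes against control were -1.49 ± 0.17 with IN10018, -3.11 ± 0.19 with crizotinib and -3.79 ± 0.20 with the combination. In linear terms the combination stood 13.8 times below control, crizotinib 8.63 times and IN10018 2.81 times. Here crizotinib library 2 was the nearest of its group to control, and without it the crizotinib change was -3.40.

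PPP1R15B, the constitutive counterpart of PPP1R15A and not one of the 9 members, averaged 448 ± 1.74 CPM with IN10018, 272 ± 91.5 CPM with crizotinib, 185 ± 37.1 CPM with the combination and 545 ± 4.56 CPM in control (SD, n = 3 each). It fell by 1.00 ± 0.20 with crizotinib (edgeR adjusted p = 0.00424) and by 1.56 ± 0.20 with the combination (adjusted p = 7.9e-05). With IN10018 its difference was -0.28 ± 0.20 (adjusted p = 0.659). Without crizotinib library 2 the crizotinib change was -0.77 (adjusted p = 0.00262).

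**Figure D2:**
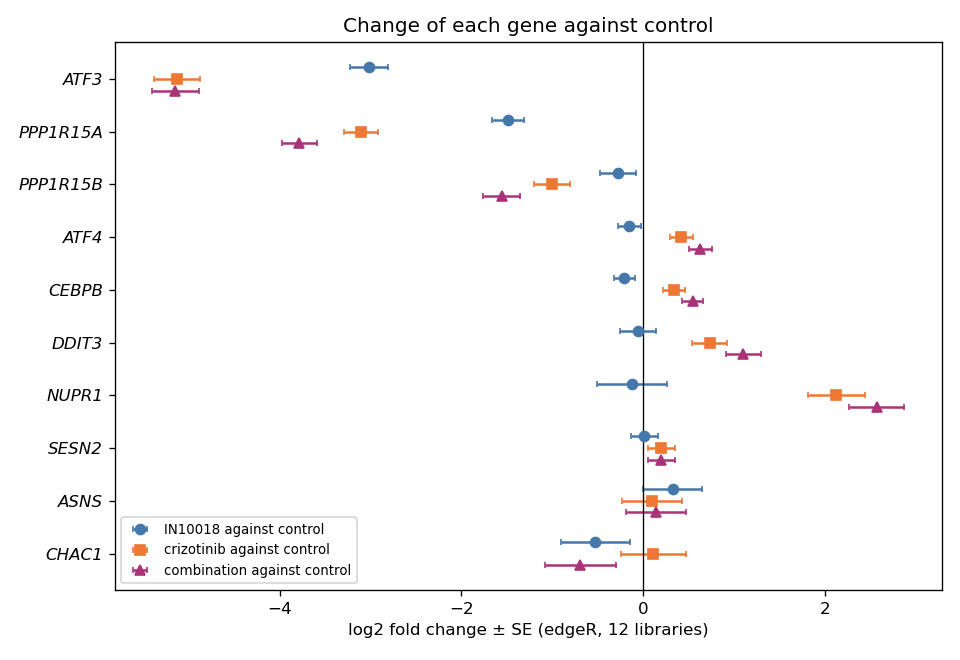
Log2 fold change against control (horizontal axis) with its SE from the fit, for the 9 members and PPP1R15B, with circles for IN10018, squares for crizotinib and triangles for the combination. ATF3 and PPP1R15A stand left of 0 for all 3 treatments, down to -5.15 and -3.79 for the combination, and ATF4, CEBPB, DDIT3 and NUPR1 stand right of 0 for crizotinib and the combination.

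The remaining 3 members encode metabolic effectors that ATF4 is known to induce. ASNS (ENSG00000070669, chromosome 7, 97852118 to 97872542, - strand) makes asparagine. Its levels were 2.60, 1.41 and 1.24 CPM with IN10018, 1.84, 1.26 and 1.40 CPM with crizotinib, 1.01, 1.74 and 1.90 CPM with the combination, and 1.27, 1.69 and 1.22 CPM in control. All 4 groups overlapped, at 17 to 42 reads a library. The differences from control were 0.32 ± 0.33 (IN10018, adjusted p = 0.768), 0.10 ± 0.33 (crizotinib, adjusted p = 0.825) and 0.14 ± 0.33 (combination, adjusted p = 0.724), and each of the 3 changed sign when 1 library was left out. A same-strand transcript of 298 reads in all, AC079781.5, overlaps ASNS. Beside the 17 to 42 reads a library of ASNS these are not few, so the level and differences of ASNS carry this doubt.

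CHAC1 (ENSG00000128965, chromosome 15, 40952962 to 40956519, + strand), which degrades glutathione, was read 4 to 18 times a library. It had 0.247, 0.657 and 1.03 CPM with IN10018, 1.07, 0.970 and 0.955 CPM with crizotinib, 0.476, 0.556 and 0.673 CPM with the combination, and 0.823, 1.03 and 0.905 CPM in control. The combination libraries lay below all crizotinib and all control libraries, and the IN10018 libraries spread across the whole range. No difference was called, with -0.53 ± 0.38 for IN10018 (adjusted p = 0.67), 0.11 ± 0.35 for crizotinib (adjusted p = 0.816) and -0.69 ± 0.39 for the combination (adjusted p = 0.136) against control.

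SESN2 (ENSG00000130766, chromosome 1, 28259527 to 28282491, + strand), a restrainer of the growth kinase mTORC1, had 8.53, 7.02 and 9.58 CPM with IN10018, 8.95, 10.4 and 9.17 CPM with crizotinib, 9.64, 9.73 and 9.12 CPM with the combination, and 9.20, 8.47 and 7.24 CPM in control. Its groups overlapped throughout. The differences from control were 0.01 ± 0.15 (adjusted p = 0.982), 0.20 ± 0.15 (adjusted p = 0.288) and 0.20 ± 0.15 (adjusted p = 0.253) for IN10018, crizotinib and the combination. At these SEs small changes of SESN2, and up to moderate ones of ASNS and CHAC1, were not detectable.

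When libraries were scaled to their totals, without TMM factors, the all-gene median shifted by 0.124 (log2) for crizotinib and 0.179 for the combination against control, and the calls over all genes became 1948 lower and 4827 higher (crizotinib) and 3763 lower and 7113 higher (combination). Under it SESN2 was called higher with the combination (0.38, adjusted p = 0.0441), and every direction given above for a called member was the same under all scalings tried.

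Levels can be set side by side between genes only per length, here as CPM per kilobase of annotated exon. Each length joins all annotated exons of a gene (NUPR1 5674, ASNS 4455 and ATF3 4040 bases), whichever transcripts these cells use. The order depends on this choice, and other lengths were not tried. With IN10018 the order was ATF4 (73.5 ± 2.23), PPP1R15A (22.5 ± 1.60), CEBPB, DDIT3, SESN2, ATF3 (0.715 ± 0.110), ASNS, CHAC1 and NUPR1. With crizotinib it was ATF4 (109 ± 22.1), CEBPB, PPP1R15A (7.33 ± 2.33), DDIT3, SESN2, NUPR1, CHAC1, ASNS and ATF3 (0.164 ± 0.0573). With the combination it was ATF4 (126 ± 10.9), CEBPB, DDIT3, PPP1R15A (4.60 ± 0.575), SESN2, NUPR1, ASNS, CHAC1 and ATF3 (0.164 ± 0.0673). In control it was ATF4 (81.7 ± 3.26), PPP1R15A (63.3 ± 7.53), CEBPB, ATF3 (5.80 ± 0.687), DDIT3, SESN2, CHAC1, ASNS and NUPR1 (SD, n = 3 throughout). ATF4 was thus first in every group, while ATF3 was last of the 9 in both crizotinib-containing groups and ranked 4 in control. Neighbours whose libraries overlapped were ASNS with CHAC1 and CHAC1 with NUPR1 (IN10018), PPP1R15A with DDIT3 and NUPR1 with CHAC1 (crizotinib), and ASNS with CHAC1 (combination).

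**Figure D3:**
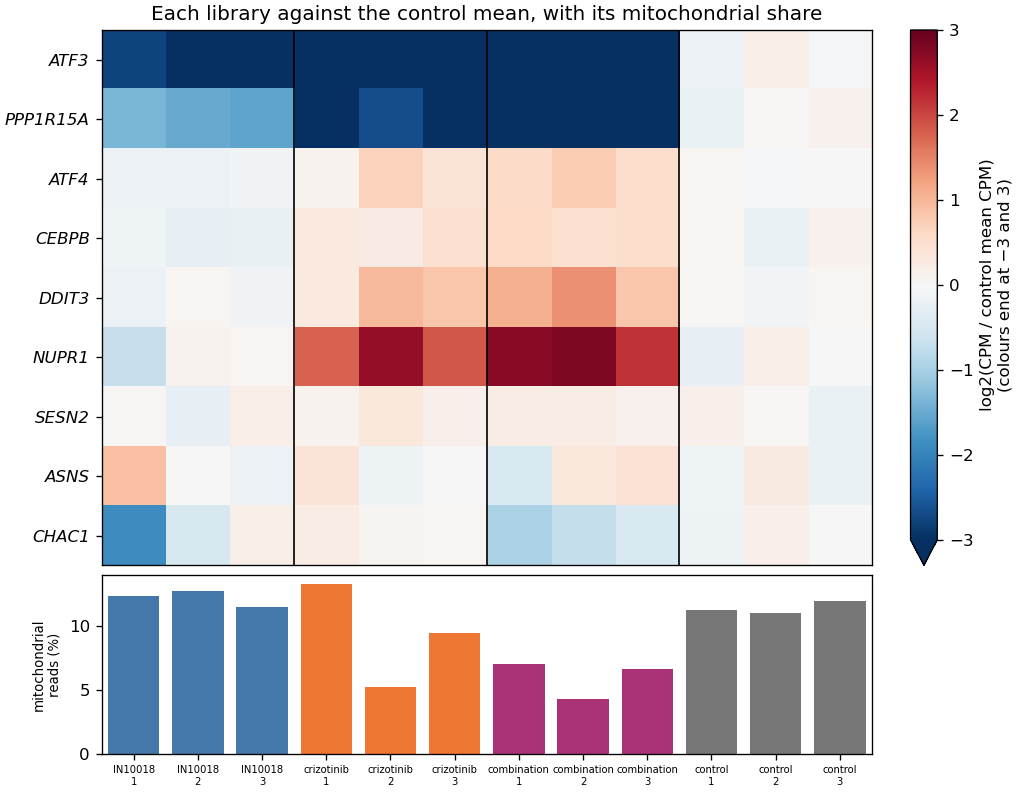
Upper panel, log2 of each library's CPM over the control mean for the 9 members (rows) in the 12 libraries (columns), with colours ending at -3 and 3. Lower panel, the percentage of reads that fell in mitochondrially encoded genes. Crizotinib library 2, with a share of 5.21%, is closer to the combination libraries than crizotinib libraries 1 and 3 are in ATF4, DDIT3 and NUPR1. In PPP1R15A (31.0 CPM, beside 18.0 and 19.0) and CEBPB (21.4 CPM, beside 21.9 and 25.0) it is further from them.

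The direct comparisons of treatments asked what one drug added to the other. Added to IN10018, crizotinib left 2 members called lower (ATF3 and PPP1R15A) and 4 called higher (ATF4, DDIT3, NUPR1 and CEBPB) in the combination against IN10018, where 27.5% and 29.7% of all genes were called. ATF4 rose by 0.78 ± 0.13 (adjusted p = 0.000468), DDIT3 by 1.16 ± 0.19 (adjusted p = 0.000472) and CEBPB by 0.75 ± 0.12 (adjusted p = 0.000408). ATF3 was lower by a log2 fold change of -2.13 ± 0.29 and PPP1R15A by -2.29 ± 0.19, and NUPR1 was higher by 2.69 ± 0.31. Because ATF3, PPP1R15A and NUPR1 were chosen on their measured changes, nothing is read from the member counts here or in the direct comparisons below.

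Crizotinib against IN10018 gave the same 2 and 4 members, where 10.3% of all genes were called lower and 11.5% higher. The changes were 0.57 ± 0.13 for ATF4 (adjusted p = 0.0216), 0.79 ± 0.19 for DDIT3 (adjusted p = 0.0243) and 0.54 ± 0.12 for CEBPB (adjusted p = 0.0209). When only the 6 libraries compared entered the fit, 0 of the 9 members were called, ATF4 having a change of 0.57 with an adjusted p of 0.0547, and over all genes that fit called 2 lower and 2 higher of 16079. Without IN10018 library 1, 2 members were called, and 3 were without IN10018 library 2, IN10018 library 3 or crizotinib library 3. Calls over all genes in these settings numbered 13, 20, 24 and 38, so calls were lost over all genes as well.

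In the combination against crizotinib, edgeR called 0 of 9 members in either direction, where it called 0.0117% of all genes lower and 0% higher. DESeq2 and limma-voom also called 0 of 9, where they called 0.0589% and 0.0117% of all genes in either direction. In edgeR 1 member had an unadjusted p under 0.05. The differences were -0.01 ± 0.37 for ATF3, -0.68 ± 0.19 for PPP1R15A, 0.21 ± 0.13 for ATF4 (adjusted p = 0.324), 0.37 ± 0.18 for DDIT3 (adjusted p = 0.246), 0.44 ± 0.25 for NUPR1 and 0.21 ± 0.12 for CEBPB (adjusted p = 0.286). For CHAC1 it was -0.80 ± 0.38 (adjusted p = 0.237), with no overlap between the groups. The result changed with the setting, for a cause that was not tested. Without crizotinib library 2, 3026 of 17457 genes were called lower and 2614 higher, and 4 members were called. These were PPP1R15A lower (-0.39) and ATF4 (0.36, adjusted p = 0.0198), DDIT3 (0.51, adjusted p = 0.049) and NUPR1 (0.77) higher. PPP1R15A and NUPR1 were chosen on their changes, so nothing is read from their calls or from counts that include them.

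Without both libraries numbered 2 of crizotinib and combination, PPP1R15A (-0.48) and ATF4 (0.30, adjusted p = 0.0229) were called, where 25.2% of all genes were. With the replicate number as a block in the 6 crizotinib and combination libraries, where same-numbered libraries deviated together, PPP1R15A was called lower (-0.63) and the other 8 were not, where 23.1% of all genes were called. As above, nothing is read from the calls of PPP1R15A.

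The interaction is the log2 change with the combination minus the sum of the log2 changes with each drug alone, so that 0 means that the drugs' log2 changes add. Its value was 3.01 ± 0.44 for ATF3 and 0.82 ± 0.25 for PPP1R15A, given as a description, since both were chosen on the changes it is made from. Over 20 alternatives the ATF3 value lay between 2.48 and 3.26, and that of PPP1R15A was 1.11 without crizotinib library 2. None of the 6 tested members was called by edgeR, DESeq2 or limma-voom (CEBPB had an unadjusted p of 0.0248 in edgeR). Of all genes, edgeR called 0.0585% higher and 0.0117% lower, and DESeq2 called 0.177% and limma-voom 0.0468% in either direction. The interaction was 0.36 ± 0.18 for ATF4 (adjusted p = 0.6), 0.43 ± 0.27 for DDIT3 (adjusted p = 0.6) and 0.41 ± 0.16 for CEBPB (adjusted p = 0.586). The combination left ATF3 at 0.662 ± 0.272 CPM, close to the 0.664 ± 0.232 CPM with crizotinib alone (SD, n = 3 each), 6 to 14 reads a library in both groups. Without both libraries numbered 2 of crizotinib and combination, ATF4 was called (0.45, adjusted p = 0.0207), where 11.1% of all genes were.

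The genes nearest to ATF3 and to PPP1R15A over the 12 libraries were sought by the root-mean-square distance between log2 CPM values centred on each gene's own mean, among 12703 genes at a mean log2 CPM of at least 1. For ATF3 they were PPP1R15A (0.797), TRIB1 (1.04), JUN (1.13), EGR1 (1.15) and NR4A2 (1.23), with a median distance of 2.05 over all ranked genes. For PPP1R15A they were EGR1 (0.555), JUN (0.558), TRIB1 (0.634), CITED2 (0.72) and NR4A1 (0.736), with a median of 1.49. ATF3, at 0.797 from PPP1R15A, was not among these 5. JUN, a subunit of the AP-1 transcription factor, and EGR1, a zinc finger factor induced by mitogens, are immediate early genes. The distance takes the size of a change into account, and no member other than PPP1R15A was among the nearest 5 of ATF3. Members below that mean level, such as CHAC1 and ASNS, were not ranked and could not appear, so nothing is read from their absence.

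A list of 22 immediate early genes, which excludes the 9 members, was written with earlier results of these data known. For that reason nothing is read from its counts. Among its 20 tested genes, 11 fell with IN10018, 15 with crizotinib and 15 with the combination, and 0, 0 and 3 rose. Of all tested genes, 0.158, 17.6 and 29.1% were called lower and 0.345, 20.0 and 33.7% higher, in the same order. The median log2 fold changes were -0.88, -1.44 and -1.69, beside -0.02, 0.08 and 0.10 over all tested genes. NR4A2, an orphan nuclear receptor, fell by 1.39 ± 0.13 (adjusted p = 0.000214), 2.15 ± 0.13 (adjusted p = 7e-07) and 2.05 ± 0.13 (adjusted p = 6.8e-07) in the 3 comparisons. EGR1 fell by 1.29 ± 0.15 (adjusted p = 0.00204), 2.03 ± 0.15 (adjusted p = 4.8e-06) and 2.75 ± 0.16 (adjusted p = 2e-07). The count with IN10018 was between 3 and 7 without control library 1, without control library 3 or without any 1 IN10018 library, where 7 to 52 of all genes were called, beside 27 lower and 59 higher with all libraries.

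A further 10 lists held 89 genes of the pathway and its neighbourhood, of which 84 were tested. They were written from general knowledge, with earlier results of these data known. With IN10018, edgeR called 0 of the 84 (8 had an unadjusted p under 0.05), limma-voom 0, DESeq2 2 and edgeR on the 6 compared libraries alone 18 of 83 (where 13.9% of all genes were called), and the median was -0.12 beside -0.02 for all genes. With crizotinib 26 fell and 9 rose (median -0.15 beside 0.08), and with the combination 38 fell and 18 rose (median -0.26 beside 0.10). As shares of 84 these counts stand beside the 17.6% and 20.0%, and the 29.1% and 33.7%, of all genes. The counts of the single lists given below stand beside the same shares. With scaling by library totals 14 fell and 17 rose with crizotinib, and 28 fell and 22 rose with the combination. The crizotinib total of 35 was 18 without crizotinib library 2 (where 20.9% of all genes were called), and 12, 23 and 17 without control libraries 1, 2 and 3 (where 17.7, 27.9 and 20.9% were).

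**Figure D4:**
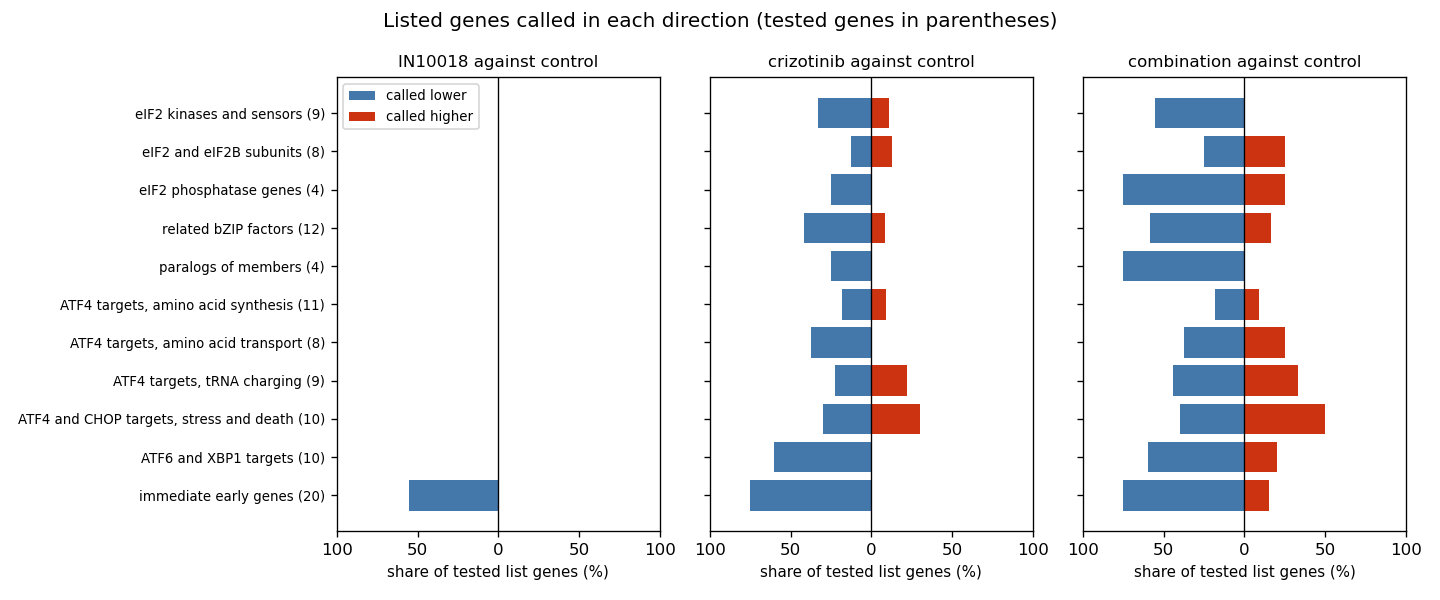
Share of the tested genes of each list (percent, horizontal axis) called lower (left of 0, blue) or higher (right of 0, red) against control with IN10018, crizotinib and the combination, with the number of tested genes in parentheses. With IN10018 only the immediate early genes have called members, 11 of 20 lower, where 0.158% of all tested genes were called lower. The lists were written with earlier results of these data known, so nothing is read from this count.

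Upstream of the members, 3 of 9 kinases and sensors fell and 1 rose with crizotinib, and 5 fell and 0 rose with the combination. EIF2AK3, the kinase PERK of the endoplasmic reticulum, fell by 0.70 ± 0.17 (adjusted p = 0.00881) with crizotinib and by 1.36 ± 0.18 (adjusted p = 7.7e-05) with the combination. It averaged 23.7 ± 0.435 CPM with IN10018, 17.2 ± 3.56 with crizotinib, 10.8 ± 2.56 with the combination and 27.9 ± 2.0 in control (SD, n = 3 each). GCN1, which activates the amino acid sensor GCN2, fell by 0.37 ± 0.11 and 0.44 ± 0.11, and IMPACT, an inhibitor of that activation, by 0.65 ± 0.19 and 1.07 ± 0.20. Of 8 subunits of eIF2 and its exchange factor eIF2B, EIF2S1, the subunit that is phosphorylated, fell by 0.64 ± 0.13 (adjusted p = 0.00471) and 0.97 ± 0.13 (adjusted p = 9.4e-05), and EIF2B4 rose by 0.40 ± 0.12 and 0.62 ± 0.12. In all, 1 subunit fell and 1 rose with crizotinib, and 2 fell and 2 rose with the combination.

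Of the 4 other genes of the eIF2 phosphatase, PPP1R15B alone was called with crizotinib. With the combination PPP1R15B, PPP1CC (-0.63 ± 0.15) and PPP1CB (-0.34 ± 0.11) fell and PPP1CA (0.27 ± 0.11, adjusted p = 0.0496) rose. Among 12 tested related bZIP factors, 5 fell and 1 rose with crizotinib, and 7 fell and 2 rose with the combination. CREB1, which binds the CRE, fell by 0.50 ± 0.13 and 0.74 ± 0.13, and ATF6B rose by 0.54 ± 0.13 and 0.89 ± 0.13.

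Known ATF4 targets were called in both directions, as were genes at large. Over all tested genes, 17.6% were called lower and 20.0% higher with crizotinib, and 29.1% and 33.7% with the combination. Nothing about ATF4 targets as a class is read from the counts below. Of 11 genes of amino acid synthesis, 2 fell and 1 rose in each of the 2 comparisons. MTHFD2, a mitochondrial folate enzyme, fell by 0.38 ± 0.12 with crizotinib and 0.72 ± 0.12 with the combination, PSAT1, of serine synthesis, fell by 0.47 ± 0.12 and 0.63 ± 0.12, and CBS, of cysteine synthesis, rose by 1.37 ± 0.32 and 1.15 ± 0.32. Of 8 amino acid transporters, 3 fell and 0 rose with crizotinib, and 3 fell and 2 rose with the combination. SLC38A2, a transporter of small neutral amino acids, fell by 0.96 ± 0.20 (adjusted p = 0.00544) and 1.50 ± 0.21 (adjusted p = 9.8e-05), and SLC7A11, the cystine importer, fell by 0.86 ± 0.18 (adjusted p = 0.00546) and 1.21 ± 0.19 (adjusted p = 0.000163). Of 9 genes of tRNA charging and export, 2 fell and 2 rose with crizotinib, and 4 fell and 3 rose with the combination. XPOT, the tRNA exporter, fell by 0.72 ± 0.18 and 1.15 ± 0.18, and CARS1, the cysteine tRNA ligase, rose by 0.51 ± 0.15 and 0.83 ± 0.15.

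Of 10 tested ATF4 and CHOP targets of stress and death, 3 fell and 3 rose with crizotinib, and 4 fell and 5 rose with the combination. DDIT4 (REDD1), which restrains mTORC1, averaged 14.5 ± 0.571 CPM with IN10018, 25.7 ± 0.641 with crizotinib, 31.3 ± 4.26 with the combination and 11.9 ± 0.632 in control (SD, n = 3 each). It rose by 1.11 ± 0.12 (adjusted p = 0.000151) with crizotinib and 1.40 ± 0.12 (adjusted p = 8.9e-06) with the combination. TRIB3, a pseudokinase that CHOP induces, rose by 0.46 ± 0.14 with crizotinib (adjusted p = 0.0193). ERO1A, an oxidase of the endoplasmic reticulum, fell by 0.45 ± 0.15 and 0.90 ± 0.16. Of 10 targets of ATF6 and XBP1, the other arms of the unfolded protein response, 6 fell and 0 rose with crizotinib, and 6 fell and 2 rose with the combination. HERPUD1, of protein degradation at the endoplasmic reticulum, fell by 0.38 ± 0.10 and 0.59 ± 0.10, and the chaperone gene DNAJB9 by 0.64 ± 0.18 and 0.99 ± 0.19.

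The paralogs of the members were counted separately. Of 4 tested paralogs, 1 fell with crizotinib and 3 with the combination, and 0 rose. CHAC2, the relative of CHAC1, fell by 0.81 ± 0.18 with the combination (adjusted p = 0.0018) and had -0.39 ± 0.18 with crizotinib (adjusted p = 0.1). SESN1, the relative of SESN2, had -0.20 ± 0.19 (adjusted p = 0.409) and -0.39 ± 0.19 (adjusted p = 0.0905). Among the genes named from these lists, the calls of EIF2AK3, EIF2S1, PPP1R15B, PSAT1, SLC38A2, SLC7A11, XPOT and DDIT4 held in all 21 alternatives in both comparisons. Crizotinib calls were lost without control library 1 for GCN1, IMPACT, EIF2B4, CREB1, MTHFD2, CARS1, TRIB3, ERO1A, HERPUD1 and DNAJB9. They were lost without crizotinib library 2 for IMPACT, EIF2B4, MTHFD2, CARS1, TRIB3 and ERO1A, without control library 2 for MTHFD2, TRIB3 and ERO1A, and without control library 3 for these 3 and for IMPACT, EIF2B4, ATF6B and CARS1. Without crizotinib library 3 those of GCN1 (-0.29, adjusted p = 0.0729) and HERPUD1 (-0.32, adjusted p = 0.0607) were lost. That of ERO1A was also lost without IN10018 library 1 (-0.45, adjusted p = 0.0504) or 3 (-0.43, adjusted p = 0.0619), although these libraries are in neither group of that comparison. With only the libraries compared, EIF2B4 was not called (0.37). Scaling by library totals ended the crizotinib calls of GCN1 (-0.24), MTHFD2 (-0.26), ERO1A (-0.33) and HERPUD1 (-0.25). Without both libraries numbered 2, CBS was not called with crizotinib (1.04) or with the combination (0.85). In the combination the call of PPP1CA was lost in 15 of 21 alternatives and that of PPP1CB with library totals (-0.16) and without combination library 2 (-0.25).

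In the combination against crizotinib, edgeR, DESeq2 and limma-voom called 0 of the 84 listed genes (22 had an unadjusted p under 0.05 in edgeR). Without crizotinib library 2, 33 of the 84 were called, where 32.3% of all genes were. The fit of the 6 libraries with the replicate number as a block called 17 of 83 lower and 6 higher, where 23.1% of all genes were called.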

How the data were processed

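Gene-level read counts of 12 libraries were analysed. The authors deposited whole-number counts per gene, without normalization. Per the submitters' processing notes, Trimmomatic, FastQC, HISAT2, featureCounts and DESeq2 were used, with builds hg38 and GRCh38. Per the labels' protocols, a directional kit made the libraries from TRIzol RNA. Versions, annotation release and strand setting are not given in the sources used here.

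Groups follow the treatment label. One edgeR 4.0.16 fit (R 4.3.3) held all 12 libraries, with TMM scaling, filterByExpr by group and a robust quasi-likelihood F test. Contrasts are the first-named group minus the second. Benjamini-Hochberg adjustment ran over all 17096 tested genes, at a threshold of 0.05. An SE is the absolute log2 fold change divided by the square root of F. The common biological coefficient of variation was 0.139. DESeq2 1.42.0 and limma-voom (limma 3.58.1) were alternatives, beside other scalings, filters, a replicate block, only the libraries compared, leaving out each library in turn, and leaving out both libraries numbered 2 of crizotinib and combination. The block within the 6 crizotinib and combination libraries was added after seeing the data. The procedure was tested on simulated data.

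The members and lists were chosen with earlier results of these data known. Named genes are the 9 members, up to 4 genes with the smallest p from each list in each comparison, and the 5 nearest patterns of ATF3 and PPP1R15A. Residuals of same-numbered crizotinib and combination libraries correlated at 0.45, 0.825 and 0.48, although crizotinib library 1 reached 0.625 with another number. This pairing comes from the data and not from the labels. Positions and exon lengths are from GENCODE on GRCh38. RefSeq promoter windows matched 8 of the 9 members (13 windows), all but NUPR1. No pair of libraries agreed within sampling noise.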

Additional observations from a re-analysis of the deposited data

Results flagged for a closer look

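In 4 of the listed genes, all immediate early genes, the 2 drugs' log2 changes did not add, by the edgeR test of the interaction itself over all tested genes. NR4A2 (1.49, adjusted p = 0.00735) and KLF6 (1.28, adjusted p = 0.022), a zinc finger factor, had positive interactions on the log2 scale. KLF6 averaged 105 ± 5.54 CPM with IN10018, 97.9 ± 20.1 with crizotinib, 113 ± 8.98 with the combination and 222 ± 21.7 in control (SD, n = 3 each). FOS (-2.26, adjusted p = 0.00538) and FOSB (-1.80, adjusted p = 0.016), both AP-1 subunits, had negative ones. FOS averaged 407 ± 28.8 CPM with IN10018, 145 ± 24.1 with crizotinib, 13.0 ± 4.40 with the combination and 945 ± 116 in control. The call of FOS held in all 20 alternatives, that of NR4A2 in 17, of FOSB in 14 and of KLF6 in 10.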

How the results depend on the processing

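Of 27 member calls over the 7 comparisons, 18 held in every alternative. Both counts include calls of ATF3, PPP1R15A and NUPR1, chosen on their changes, so nothing is read from them. Of the tested members, ATF4, DDIT3 and CEBPB kept their calls in the combination against control and against IN10018 in all 21 alternatives. DDIT3 also kept its call with crizotinib against control. Members called in the combination against crizotinib (0) became 1 without the filter, 1 with the replicate block in the 6 crizotinib and combination libraries, 2 without both libraries numbered 2, and 0 to 4 when 1 library was left out. In crizotinib against IN10018 (6) they became 0 with only the libraries compared and 2 to 6 leaving out 1 library. For the interaction (1, ATF3, from which nothing is read) they became 2 without the filter, 3 without both libraries numbered 2, and 0 to 2 leaving out 1 library.

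Pathway list genes called with IN10018 against control (0) became 3 without the filter, 1 with the replicate block, 18 with only the libraries compared, 2 with DESeq2, 6 without both libraries numbered 2, and 0 to 1 leaving out 1 library. With crizotinib against control (35) leaving out 1 library gave 12 to 44. In the combination against crizotinib (0) they became 9 without the filter, 28 without both libraries numbered 2, 23 with the replicate block in 6 libraries, and 0 to 33 leaving out 1 library. Over all genes the last comparison gave 5640 calls without crizotinib library 2 and 3790 with the block in 6 libraries, beside 2 in the edgeR fit used throughout. Immediate early genes called with IN10018 (11) ranged from 3 to 13 leaving out 1 library. The cause of these moves was not tested.

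Signs turned for member differences that were called in no setting. ATF3 in the combination against crizotinib ranged from -0.55 to 0.27 and NUPR1 with IN10018 from -0.29 to 0.077. DDIT3 with IN10018 became 0.0082 with library totals. SESN2 with IN10018 became -0.024 with DESeq2 size factors, -0.036 with DESeq2 and ranged from -0.11 to 0.13 leaving out 1 library. ASNS ranged from -0.068 to 0.53 with IN10018, from -0.063 to 0.26 with crizotinib and from -0.039 to 0.38 with the combination. Read numbers limit CHAC1 (4 to 18 a library), ASNS (17 to 42) and ATF3 with crizotinib or the combination (6 to 14). The block over all 12 libraries changed no count of called members against control.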
